A study of Mus musculus with 4 samples.

Results

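The baseline distribution of engaged RNA polymerase along the genes of wild-type (WT) mouse liver was described from the 2 WT PRO-seq libraries, WT1 and WT2, of a series of 4. Of 20642 gene symbols listed, 12540 (60.7%) were transcriptionally active, meaning that reads averaged over both libraries were present near the promoter and exceeded 4 normalized reads per kb in the gene body. This cutoff was applied on the deposited scale, whereas in the study's methods it applies after scaling of each library's total reads. Scaling the reads on genes to 10000000 would put it at 10.5 reads per kb and leave 10972 genes. Both libraries came from frozen whole livers of C57BL/6 mice at postnatal day 14 with the genotype Alb-Cre+ *Hdac3*+/+, so the WT animals also carried Cre under the albumin promoter, which is active in hepatocytes. Each library was made from nuclei pooled over several mice. The other 2 libraries, from mice lacking *Hdac3* in the liver, were not used.

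PRO-seq lets polymerases that are already engaged add biotin-labelled nucleotides in isolated nuclei, so reads mark transcribing polymerase and not stored RNA. After initiation, polymerase II commonly stops shortly after the start of a gene, held by the pausing factors DSIF and NELF, until the kinase P-TEFb releases it into productive elongation. A gene can therefore have many polymerases near its start and few along its body, or the reverse. The liver is known for a small set of secreted proteins and metabolic enzymes that are transcribed at very high rates.

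Each gene was described by 3 quantities. Gene body density is the number of normalized reads per kb from 1 kb past the annotated start to the transcript end, and stands for output. The promoter-proximal level is the number of normalized reads in the richest 50 bp window near the start. The pausing ratio is the promoter-proximal density divided by the gene body density, so a ratio of 10 means that the window held 10 times as many reads per base as the body. Because gene body density is its denominator, the ratio is not independent of gene body output. The window was placed by the authors around the annotated start, and use of other start sites was not tested.

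The gene regions held 22801905 reads in WT1 and 26190040 reads in WT2, of which 10.3% and 9.38% were promoter-proximal. WT1 counts had been multiplied by 1.15 and WT2 counts by 1 before deposit. The pools gave nearly the same picture of the genome. Across all active genes, the Pearson correlation of log2 reads (pseudocount 1) between WT1 and WT2 was 0.992 in the gene body and 0.975 in the promoter window. For the log2 pausing ratio it was 0.963. Gene body reads also depend on gene length, and the correlation of gene body density was not computed. Genes are not independent replicates, and these values describe agreement only. Among active genes with reads in both pools, gene body density differed by less than 1.5-fold for 95.4% and promoter-proximal density for 79.9%. The promoter window was therefore the noisier measure. Where both regions had reads in both pools, the log2 pausing ratio had an SD of 1.82 across genes, against 0.52 for its difference between the pools. *Hdac3* itself, on chromosome 18, had 39.1 and 38.1 gene body reads per kb, and its ratio was 66.3 in WT1 and 56.7 in WT2.

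**Figure D1:**
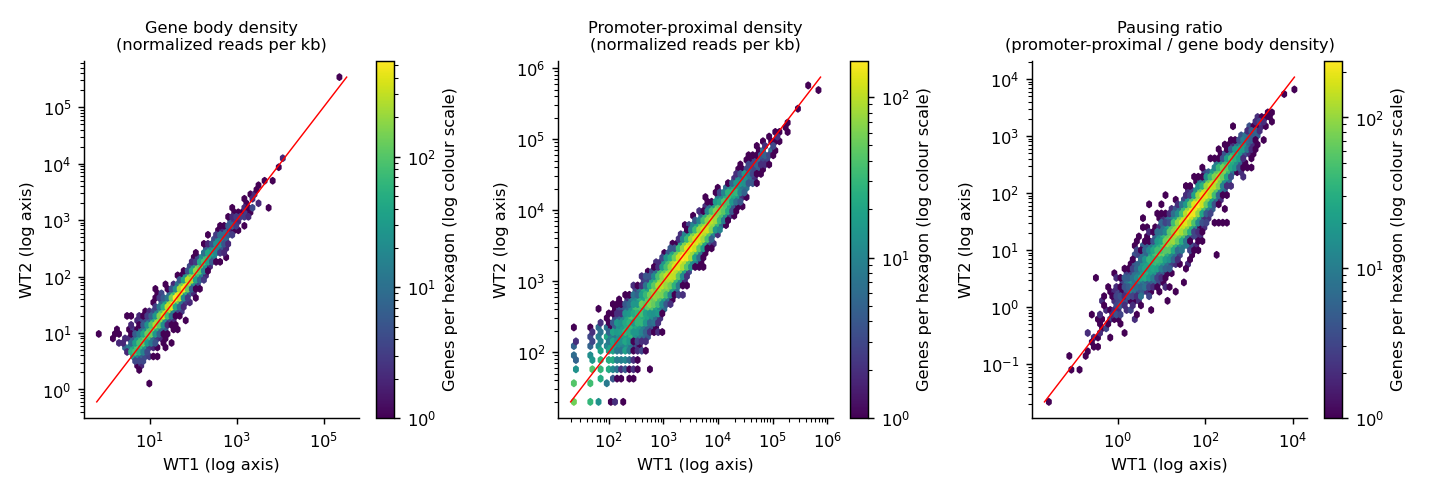
Agreement of the 2 WT pools over the active genes. Each panel has WT1 on the horizontal and WT2 on the vertical log axis, for gene body density and promoter-proximal density (normalized reads per kb) and for the pausing ratio (no unit), with the number of genes in each hexagon as colour on a log scale and the line of equality in red. Genes without a positive value in both pools are not drawn. Genes lie close to the line in gene body density and spread more widely in promoter-proximal density and pausing ratio. Over all active genes, Pearson r was 0.992 for log2 gene body reads, 0.975 for log2 promoter-proximal reads and 0.963 for the log2 pausing ratio.

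Applied to 1 pool at a time, the activity rule gave 12419 genes in WT1 and 12541 in WT2, and 12270 genes passed in both. The cutoff falls in a continuous distribution. The active genes nearest to it were *Ovgp1* (4.00 and 4.04 reads per kb in WT1 and WT2), *4930578N16Rik* (4.15 and 3.88) and *A730090N16Rik* (4.28 and 3.73). The inactive genes nearest to it were *Cyp2c54* (5.13 and 2.87), *Rnd2* (2.91 and 5.08) and *Fam122b* (3.61 and 4.37). Both sides of the cutoff therefore held genes that 1 pool alone would have placed differently.

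Among the 8102 inactive genes, 4652 had no promoter-proximal read in either pool and 2444 had no read in either region. A further 143 inactive genes had at least 50 promoter-proximal reads on average, that is polymerase at the start with a gene body under the cutoff. *Tsga10* had the most, with 1175 reads in WT1 and 794 in WT2 beside a gene body of 3.32 and 3.06 reads per kb. *Caprin2* (754 and 606 promoter-proximal reads), the neurotrophic factor gene *Cdnf* (717 and 536), the histone H4 gene *Hist4h4* (579 and 535) and *Asb15* (517 and 391) followed. Of these 143 genes, 9 had no read counted in the gene body. They included *G0s2*, an inhibitor of triglyceride lipase (382 and 459 reads), *4930555B11Rik* (346 and 281) and *Ppdpf* (181 and 123). *G0s2* spans little more than 1 kb (chr1:193272160-193273188 in RefSeq's GRCm38.p6), so a body that begins 1 kb past the start leaves almost none of it.

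Protein-coding genes were active more often than other classes in the RefSeq annotation. Of 18632 protein-coding genes 11997 (64.4%) were active, compared with 452 of 1614 lncRNA genes (28.0%) and 52 of 236 transcribed pseudogenes. Active lncRNA genes had a median gene body density of 22.9 reads per kb and a median pausing ratio of 30.1, against 38.9 and 48.0 for active protein-coding genes. On the X chromosome 338 of 845 listed genes (40%) were active, against 61.9% on the autosomes. The median gene body density of active X-linked genes was 20.4 reads per kb in WT1 and 19.5 in WT2, against 38.3 and 39.3 for autosomal genes, while the median ratio was 55.1 against 47.1. These are descriptions of gene classes without a test.

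Among active genes, gene body density was spread over a narrower range than promoter-proximal level. The activity rule sets a lower bound on gene body density but asks only that promoter-proximal reads be present. Part of this contrast is therefore built in, and the size of that part was not tested. The promoter window was also the noisier measure between the pools. The median active gene had 37.7 gene body reads per kb in WT1 and 38.6 in WT2, and the 90th percentile of the mean density (123) was 13.9 times the 10th percentile (8.88). The median promoter-proximal level was 94.1 reads in the 50 bp window, and its 90th percentile was 39.1 times its 10th. The median pausing ratio was 49.8 in WT1 and 44.7 in WT2. Using the mean of both pools, the ratio was above 1 for 99.2% of active genes, above 10 for 87.6%, above 100 for 26.2% and above 1000 for 63 genes.

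A one-sided exact binomial test asked, in each pool, whether the window held more reads than its share of the combined length would give if polymerase were spread evenly. It called 12018 genes, or 95.8% of those tested, in both pools at a Benjamini-Hochberg adjusted p under 0.05. The test covers counting error only, and the window was the richest of many, which favours a positive call. At the other end, 103 active genes had a ratio under 1, of which 75 were under 1 in both pools. Their median promoter-proximal level was 1.07 reads, so most had almost no reads in the annotated start window.

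Transcription was led by ribosomal RNA and by a few genes for secreted liver proteins and fasting metabolism. *Rn45s*, the precursor of ribosomal RNA, which is transcribed by polymerase I, had 230761 gene body reads per kb in WT1 and 338586 in WT2. It held 4.86% of gene body reads in WT1 and 7.06% in WT2. The submitters removed reads on ribosomal RNA loci, and the gene is repeated in the genome, so its value is what remained after that step. The remaining top genes were all transcribed by polymerase II.

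*Apoa1*, which encodes the main protein of high-density lipoprotein (chr9:46228630-46230469 in RefSeq's GRCm38.p6), came next with 11619 and 13576 reads per kb. *Pck1*, a rate-controlling enzyme of gluconeogenesis, had 10447 and 12405. *Ahsg*, which encodes the plasma glycoprotein fetuin-A, had 8909 and 9280.3. These 3 genes were about as dense in WT1 as in WT2 and stood above all that followed.

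*Igfbp1*, a secreted binding protein for insulin-like growth factors, had 6605 and 5378 reads per kb. *Alb*, which encodes serum albumin, had 4599 and 5137. *Apoa5*, a regulator of plasma triglyceride, had 3232 and 3805. *Errfi1*, a feedback inhibitor of EGF receptor signalling (2895 and 3316), and *Tat*, which degrades tyrosine (2535 and 3169), completed the list together with *Mt1*. The metallothionein gene *Mt1* was the exception to the agreement of the pools, with 5309 reads per kb in WT1 and 1544 in WT2, over a gene body of only 239 bp.

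The share of the leading genes rested on *Rn45s*. The 10 genes with most gene body reads held 8.73% of all gene body reads of active genes. The share was 3.15% when *Rn45s* was left out and the next gene took its place. This ranking is by reads and not by density, so it also depends on gene length. Reads were otherwise shared widely, since 1141 genes, or 1304 without *Rn45s*, were needed to reach 50% of gene body reads. Of the 100 densest genes in WT1, 87 were also among the 100 densest in WT2. The housekeeping genes *Actb* (722 and 771 reads per kb), which encodes beta-actin, and *Gapdh* (259 and 288), a glycolytic enzyme, were far above the median gene but well below the leading liver genes.

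A different set of genes led at the promoter. *Ppp1r10*, a nuclear regulator of protein phosphatase 1, had 37463 reads in the 50 bp window in WT1 and 24956 in WT2, more than any other gene. *Glul*, the glutamine synthetase of pericentral hepatocytes, had 14468 and 13985. *Pcf11*, a factor of transcript cleavage and termination, had 9386 and 8373. *Nufip2* (10067 and 6646), the cyclin L gene *Ccnl1* (8817 and 7386), the adaptor gene *Stap2* (6679.8 and 6442), the cholesterol exporter gene *Abca1* (5843 and 6688) and the splicing factor gene *Srsf2* (6635 and 4874) followed.

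Only *Rn45s* (23689 and 28603) and *Pck1* (5956 and 5126) were among the top 10 by both measures, and 13 genes were among the top 100 by both. Across all active genes, log2 promoter-proximal and log2 gene body density had a Pearson correlation of 0.50 and a Spearman correlation of 0.49. The points share their library and depth. The RNA processing genes of the promoter list had lower ranks in the gene body, as with *Srsf2* at 135 and 151 gene body reads per kb and *Pcf11* at 139 and 142. The 10 genes with most promoter-proximal reads held 4.78% of such reads, and 1257 genes were needed for 50%.

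**Figure D2:**
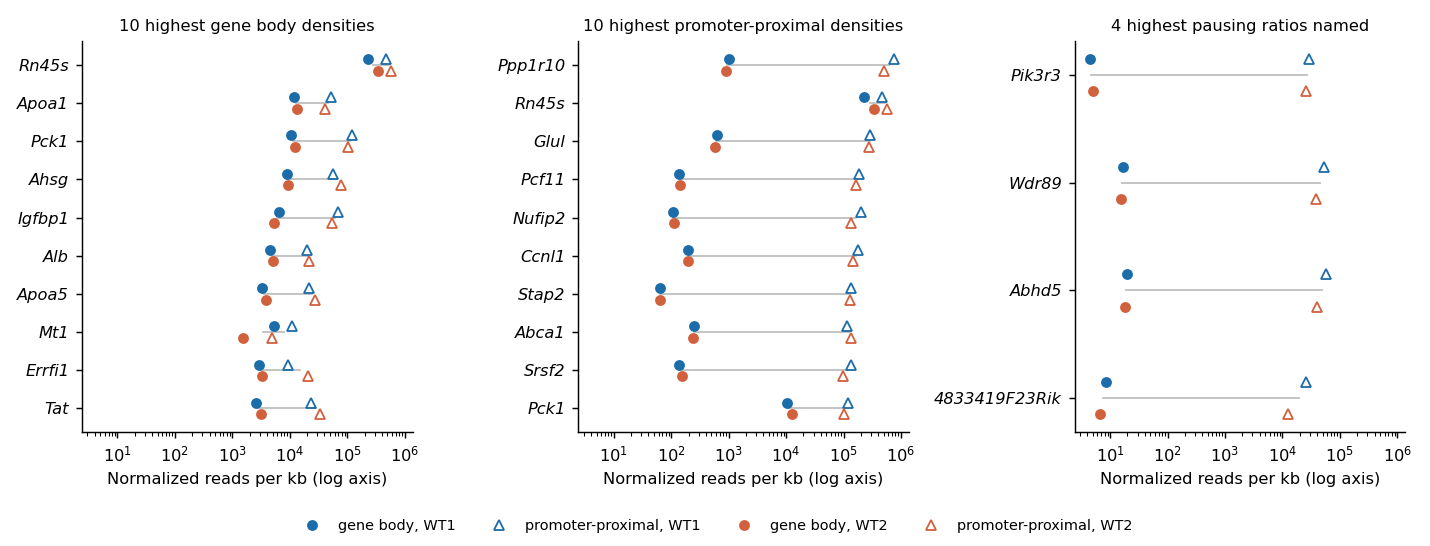
Genes with the 10 highest gene body densities, the 10 highest promoter-proximal densities and 4 high pausing ratios. The 4 ratios are the highest among genes with at least 50 reads in each region. Filled circles are gene body and open triangles promoter-proximal densities in normalized reads per kb on a log axis, 1 of each for WT1 and WT2, and a grey line joins the means. *Apoa1*, *Pck1* and *Ahsg* led the polymerase II genes in the gene body with short lines, that is low ratios, while *Pik3r3* and the other genes of the right panel joined a sparse body to a dense promoter.

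Each gene's log2 ratio was set against that of the median active gene in the same pool and tested across all active genes with limma. A gene was called high or low at an adjusted p under 0.05 and a difference over 1 log2 unit, that is over 2-fold. By this rule 3454 genes (27.5%) were high and 3561 genes (28.4%) were low. Every gene beyond 1 log2 unit also passed the adjusted p, so size decided the calls. The SE is pooled over genes of like promoter level, and the p-values measure the spread between these 2 pools only.

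High genes had a median ratio of 166 and a median gene body density of 28.5 reads per kb, and their gene bodies had a median length of 26299.5 bp. Low genes had a median ratio of 11.5, a density of 50.7 reads per kb and a length of 13518 bp. The genes in neither class lay between them, at 47.7, 40.2 reads per kb and 19378 bp. High and low genes thus differed in length as well as in output.

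The highest ratio among genes with at least 50 reads in each region belonged to *Pik3r3*, a regulatory subunit of PI 3-kinase. It had 1443 promoter-proximal reads in WT1 and 1279 in WT2, but only 4.38 and 4.95 gene body reads per kb, just over the cutoff for an active gene. Its ratio was 6589.5 and 5164, which is 6.93 ± 0.18 log2 units (SE, n = 2 pools) above the median gene (limma, adjusted p = 2.11e-293). *Wdr89* had a ratio of 3098 and 2458, at 5.85 ± 0.19 log2 units (limma, adjusted p = 6.77e-200). *Abhd5*, the coactivator of adipose triglyceride lipase, had 2906 and 2193, at 5.72 ± 0.19 log2 units (limma, adjusted p = 9.71e-190). In all 3 genes both pools showed a strong peak at the start and a sparse body.

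The protein kinase C gene *Prkca* (2317 and 2333), *Slfn3* (2216 and 1932), *Stap2* (2092 and 2007), the acetoacetate-activating enzyme gene *Aacs* (2607 and 1414), *Fam54a* (1566 and 2306) and *4833419F23Rik* (3068 and 1913) were also among the 10 highest ratios of genes with at least 50 reads in each region. *Stap2* was unlike the others named here in having a gene body above the median of all genes, at 63.9 and 64.2 reads per kb. The metabolic gene *Aacs* had a gene body below that median, at 11.9 and 14.1 reads per kb.

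The lowest ratios among low genes with a mean of at least 10 promoter-proximal and 50 gene body reads were near 1, meaning no excess of polymerase in the window. *Egfl7*, an endothelial secreted factor, had 569 and 727 gene body reads per kb but 32.1 and 25 promoter-proximal reads, for a ratio of 1.13 and 0.688, which is −5.71 ± 0.26 log2 units relative to the median gene (limma, adjusted p = 2.07e-102). *Rbp4*, the plasma carrier of retinol, had a ratio of 0.841 and 1.47 beside 1501 and 1131 gene body reads per kb. *4930526I15Rik* (0.855 and 0.742), the proprotein convertase gene *Furin* (1.09 and 0.792), the endothelial receptor gene *Gpr182* (1.003 and 1.135) and *Nr2f2* (1.68 and 1.22), which encodes the nuclear receptor COUP-TFII, were also in this group. *Gm15417* (0.883 and 1.27), *Arl4a* (0.945 and 1.22), *Kiss1* (1.14 and 1.22) and *1810019D21Rik* (1.27 and 1.17) completed the 10 lowest. Genes with fewer window reads reached lower values, such as *Atp5f1*, a subunit of ATP synthase, at 0.245 and 0.236 with 1.15 and 1 window reads.

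A few strongly transcribed genes had almost no reads in the annotated window. *Jund*, an AP-1 subunit, had 1443 and 1237 gene body reads per kb and 1.15 and 0 promoter-proximal reads. *Creb3l3*, a liver transcription factor of lipid metabolism, had 314 and 279 reads per kb and 1.15 and 2 promoter-proximal reads. At so few reads the ratio is bounded by counting, and whether polymerase pauses at an unlisted start of these genes was not tested.

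Genes with more output had lower ratios, mainly in the upper part of the range. When active genes were ordered by gene body density and cut into 10 equal groups, the median ratio was 52.9 in the lowest group, 67.6 in the third, 51.1 in the sixth, 33.9 in the ninth and 20.6 in the highest. From the lowest to the highest group the median gene body density differed 30.6-fold and the median promoter-proximal density 15.2-fold. Low ratios made up 27.0% of the lowest group and 55.7% of the highest, and high ratios 35.0% and 10.1%. Part of this order is built in, since the ratio divides by the density used for ordering.

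The extremes were more marked. Of the 100 densest gene bodies 81 had a low ratio and 4 a high one, with a median ratio of 9.73, and 91 were protein-coding. Of the 100 genes with most promoter-proximal reads 89 had a high ratio and 6 a low one. Both selections use a part of the ratio itself, so these counts are in part built in. Longer genes had higher ratios. Across 5 equal groups by gene body length, whose median lengths ran from 3008.5 to 98701.5 bp, the median ratio was 35.6, 37.8, 48.5, 55.7 and 64.4. Over the same groups the median gene body density went from 48.0 down to 28.0 reads per kb.

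**Figure D3:**
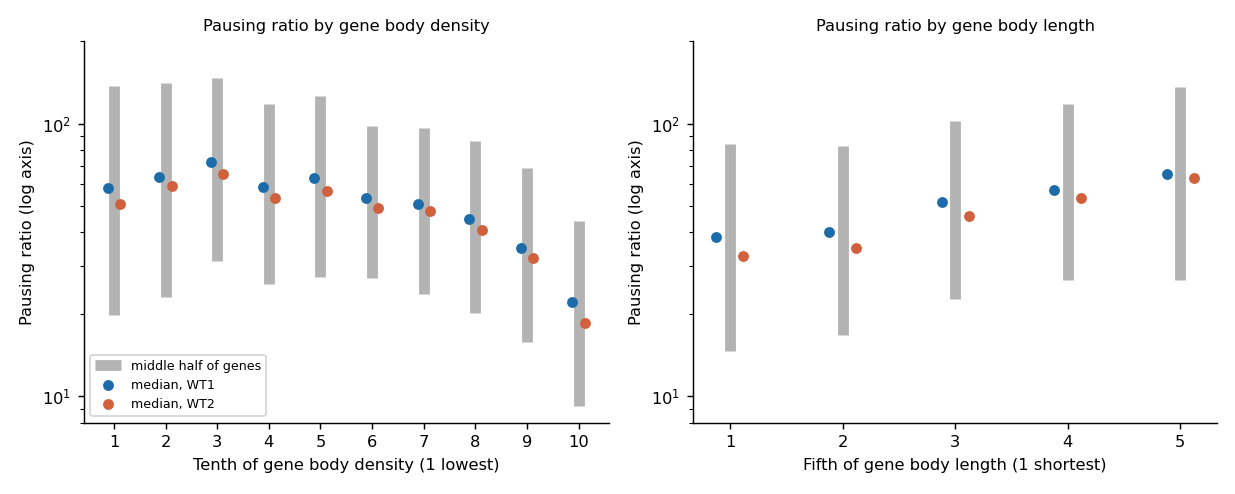
Pausing ratio by gene body density and by gene body length. Active genes are cut into 10 equal groups by gene body density (left) and 5 by gene body length (right) on the horizontal axis, with the pausing ratio (no unit) on a log vertical axis, grey bars from the lower to the upper quartile of the genes, and points at the median in WT1 and in WT2. The median over both pools was 67.6 in the third and 20.6 in the highest group of density, and was higher in each longer group, from 35.6 to 64.4.

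Gene lists by function were described by their counts and medians, beside 38.2 reads per kb, a ratio of 47.3, 27.5% high and 28.4% low over all active genes. Secretory and nitrogen-handling genes of hepatocytes had medians of output above and of the ratio below those of all active genes. The lists were not matched to other genes of like output, and 55.7% of the densest of the 10 groups above were low. For 33 active plasma protein genes of 34 listed, the median gene body density was 380.4 reads per kb in WT1 and 391 in WT2, the median ratio was 9.80 and 7.28, and 26 genes had a low ratio and none a high one. *Orm1*, an acute-phase protein, was the single inactive member, with 3.53 and 2.31 gene body reads per kb. *Trf*, which carries iron in plasma, was among the densest at 2005 and 3015 reads per kb, with a ratio of 12.2 and 7.53. The highest ratio of the list, 94.4 and 76.4, belonged to *Azgp1*, a lipid-mobilizing glycoprotein, and was 0.83 ± 0.18 log2 units above the median gene.

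All 16 apolipoprotein and lipoprotein assembly genes were active, at a median of 414 and 379 reads per kb, and 12 had a low ratio. *Apoa2*, a further protein of high-density lipoprotein, had 3016 and 1886 reads per kb. *Apob*, the structural protein of very-low-density lipoprotein, was the only member with a high ratio, at 153 and 88.3, beside 5879 and 3373 promoter-proximal reads and 768 and 764 gene body reads per kb. *Lipc*, the hepatic lipase gene, had the lowest ratio, at 3.06 and 1.38. *Apob* and *Lipc* thus lay at opposite ends of the same list.

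All 28 genes of amino acid catabolism and the urea cycle were active, at 437 and 414 reads per kb, and 17 had a low ratio. *Mat1a*, which makes S-adenosylmethionine, had 2206 and 2234 reads per kb with the lowest ratio of the list, 3.54 and 2.99. The urea cycle gene *Ass1* had 1701 and 1912 reads per kb and a ratio of 4.21 and 6.13. *Glud1*, glutamate dehydrogenase, was the only high member, with a ratio of 115 and 110.1. Low ratios were therefore common but not uniform in this list. Its share of low genes, 60.7%, was near the 55.7% of the densest of the 10 groups of active genes.

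Of 19 genes of gluconeogenesis, glycogen and glycolysis, 13 had a low ratio and 2 a high one, at a median of 132 and 148 reads per kb. *G6pc*, which releases glucose from glucose 6-phosphate, had 2633 and 2808 reads per kb with a ratio of 9.002 and 8.06. *Gbe1*, the glycogen branching enzyme, had the highest ratio, 408 and 442, at 14.5 and 12.5 reads per kb.

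Lipid enzymes were closer to the average gene. For 22 genes of fatty acid oxidation and ketogenesis the median density was 99.01 and 84.0 reads per kb and the median ratio 32.5 and 29.8, with 7 low and 2 high. *Hadhb*, a subunit of the mitochondrial trifunctional protein, had the highest ratio, 1249.9 and 921. For 22 active lipogenesis and cholesterol synthesis genes of 24, the median density was 49.2 and 53.0 reads per kb with 8 low and 4 high, and *Dgat2*, which completes triglyceride synthesis, led with 468 and 470 reads per kb.

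Of 16 bile acid genes 14 were active, at 163 and 147 reads per kb, with 6 low and 1 high. *Cyp7a1*, the rate-limiting enzyme of bile acid synthesis, had 389.9 and 279.8 reads per kb and the lowest ratio, 4.12 and 4.29. *Abcb4*, the phospholipid exporter, was the high member, with 155 and 174. Of 26 cytochrome P450 genes of families 1 to 3, 20 were active, at 105 and 80.5 reads per kb, with 10 low and 4 high. *Cyp2e1*, which oxidizes ethanol, had 3139.5 and 2090.2 reads per kb with a ratio of 2.58 and 2.14. *Cyp2r1*, a vitamin D 25-hydroxylase, was near the activity cutoff at 5.64 and 5.84 reads per kb and had the highest ratio of the family, 525 and 318.

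**Figure D4:**
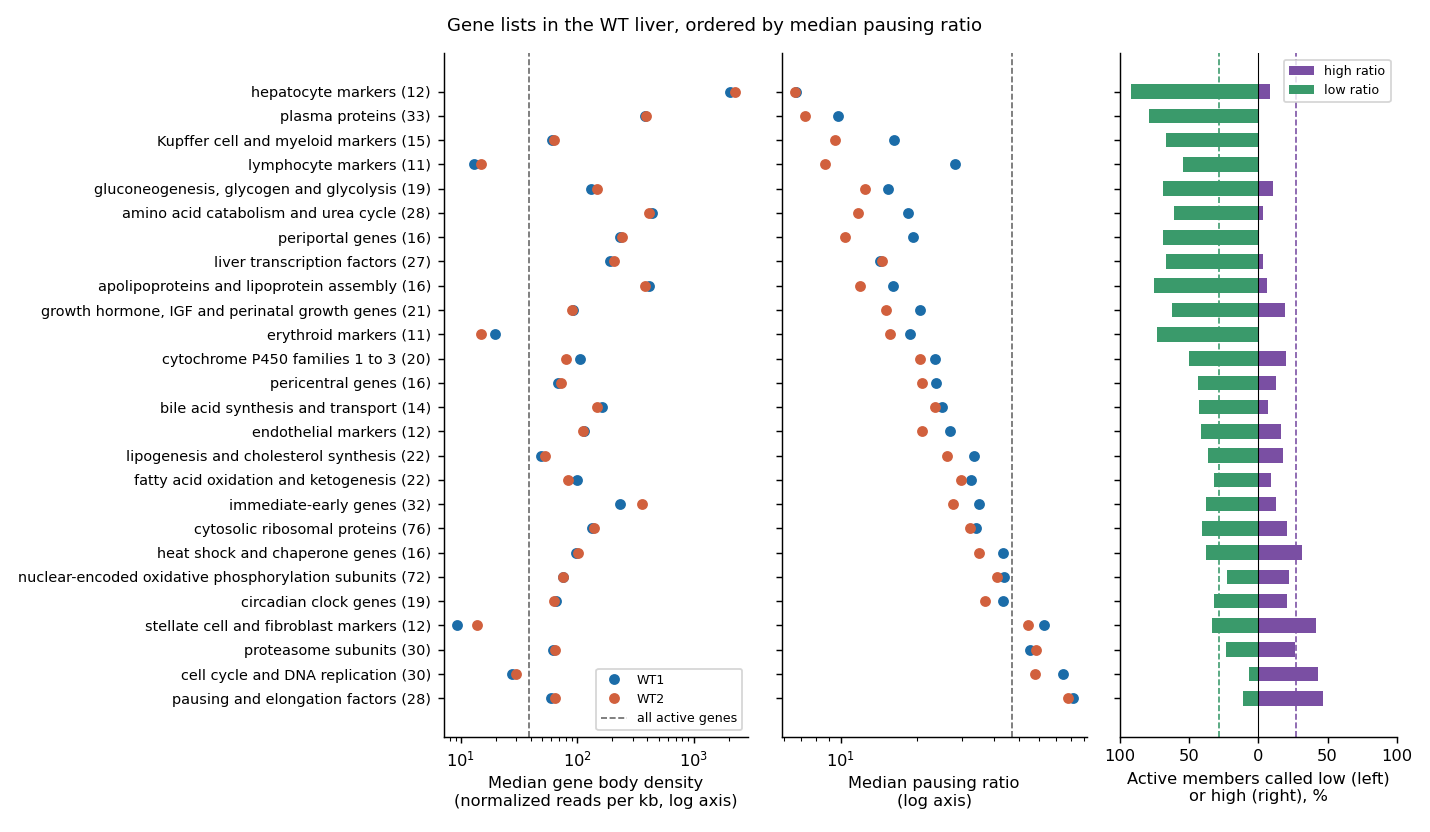
Gene lists ordered by median pausing ratio, with the number of active genes in brackets. The left panel gives the median gene body density (normalized reads per kb) and the middle panel the median pausing ratio (no unit), on log axes, with a point for WT1 and one for WT2, and the right panel the percentage of active members called low or high, with dashed lines for all active genes. Hepatocyte markers and plasma proteins combined high density with low ratios, and pausing and elongation factors and cell cycle genes lay above the median ratio of 47.3.

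Most transcription factor genes of the liver had low ratios. All 27 listed were active, at a median of 191 and 206 reads per kb, and 18 were low and 1 high. *Cebpa* had 722 and 891 reads per kb with a ratio of 14.1 and 13.4, *Hnf4a* had 692 and 710.2 with 18.1 and 14.8, and *Klf15* had 640 and 711 with 10.9 and 11.8, all 3 low. *Cebpd*, a factor of the acute-phase response, was the high member, with 4733 and 3576 promoter-proximal reads and a ratio of 788 and 515. The related *Cebpa* and *Cebpd* genes thus lay on opposite sides of the median gene, at −1.80 ± 0.18 and 3.73 ± 0.20 log2 units relative to it.

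Growth hormone, IGF and perinatal growth genes were mixed. Of 22 listed, 21 were active, 13 low and 4 high, at a median of 92.7 and 90.7 reads per kb. *H19*, an imprinted non-coding RNA of fetal and early postnatal tissue, had 1493 and 2376 reads per kb, and *Igf2*, its imprinted neighbour, had 185 and 362 with the lowest ratio, 2.74 and 1.38. *Plagl1*, a further imprinted growth regulator, had 3.94 and 4.13 reads per kb, 177 and 191 promoter-proximal reads and the highest ratio of the list, 897 and 924.

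Immediate-early genes, which respond to stimuli within minutes, covered a wide range of ratios. The lowest belonged to *Jund*, which had only 1.15 and 0 promoter-proximal reads. Of 34 listed, 32 were active, at a median of 234 reads per kb in WT1 and 357 in WT2, with 12 low and 4 high. The high members were *Fosb*, *Junb*, *Klf4* and *Gadd45a*, and *Gadd45a*, a growth arrest gene, had the highest ratio, 727 and 579.9. *Zfp36*, which destabilizes inflammatory mRNAs, had 2161 and 1768 reads per kb with a ratio of 3.09 and 3.55. *Gadd45g* had 789 and 1484 reads per kb.

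Among 20 heat shock and chaperone genes 16 were active, 6 low and 5 high, at 97.1 and 102 reads per kb. *Hspa8*, the constitutive cytosolic HSP70, had 393 and 395 reads per kb with a ratio of 7.70 and 14.4, whereas the stress-inducible *Hspa1a* had 8.03 and 0 gene body reads in all and *Hspa1b* had 4.59 and 3. Reads that map to both of these near-identical copies would have been lost with the mapping quality filter, so their level is uncertain. *Dnajb9*, a chaperone of the endoplasmic reticulum, had the highest ratio, 592 and 913. All 19 circadian clock genes were active, at 65.8 and 63.6 reads per kb, with 6 low and 4 high. *Dbp*, an output factor of the clock, had the lowest ratio of the list, 1.83 and 2.42, and *Cry1*, a repressor of the clock, the highest, 183 and 131.

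Genes for the machinery that controls pausing had a median ratio above that of all active genes. Of 28 pausing and elongation factor genes, all active at a median of 59.7 and 64.0 reads per kb, 13 were high and 3 low, and the median ratio was 81.5 in WT1 and 78.5 in WT2. *Hexim1*, the inhibitor of P-TEFb, had the highest ratio, 635 and 335, with 5074 and 3630 promoter-proximal reads. *Rdbp*, a NELF subunit, had the lowest, 6.79 and 3.78, and *Mllt1*, a subunit of the super elongation complex, was also low. *Cdk9*, the kinase of P-TEFb, had a ratio of 37.5 and 73.0 and was in neither class.

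All 76 cytosolic ribosomal protein genes were active, at a median of 133 and 140.4 reads per kb, and 31 were low and 16 high. *Rpl10* had a ratio of 1301 and 984 with 5203 and 4175 promoter-proximal reads, and *Rps28* a ratio of 1.36 and 3.43 with 10.3 and 23.0 reads. Many of these genes are short and have processed copies, which the mapping filter can affect, so single values are less certain. All 72 nuclear-encoded oxidative phosphorylation genes were active, at 75.2 and 75.4 reads per kb, with 16 low and 16 high. The 30 proteasome genes, all active, had 20.4 to 112 reads per kb, with 7 low and 8 high.

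All 30 cell cycle and DNA replication genes were active at day 14, at a median of 27.3 reads per kb in WT1 and 29.8 in WT2. Of these 13 were high and 2 low, and the median ratio was 74.7 and 57.8. *Mcm7*, a subunit of the replicative helicase, was the densest at 109 and 98.2 reads per kb, and the mitotic kinase gene *Cdk1* had 54.8 and 53.8 with a ratio of 117 and 109. *Kif20a*, a mitotic kinesin, had the highest ratio, 483 and 399. *Ccnb1*, a mitotic cyclin, and *Cdt1*, a replication licensing factor, were the low members.

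Genes of periportal hepatocytes had more output than genes of pericentral hepatocytes in these lists. The 16 periportal genes had a median of 231 and 245 reads per kb, with 11 low and none high, and the 16 pericentral genes 68.7 and 72.6, with 7 low and 2 high. *Glul* was the pericentral extreme, with 638 and 573 reads per kb and a ratio of 454 and 488, which is 3.30 ± 0.23 log2 units above the median gene (limma, adjusted p = 4.61e-45). *Cyp2f2*, a periportal P450, had a ratio of 1.19 and 0.699. In bulk samples, fewer cells of a type and less transcription per cell cannot be told apart, so these values are totals over the tissue.

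The label of the samples as liver was checked against cell type markers. All 12 hepatocyte markers were active, at 496 to 12597 reads per kb, with a summed density of 40041 in WT1 and 43162 in WT2, and 11 were low, *Apob* being the high one. Other liver cells were also visible. All 15 Kupffer cell and myeloid markers were active with a summed density of 1918 and 2248, led by *Clec4f* (349 and 370.3 reads per kb) and the complement genes *C1qa* (328 and 462) and *C1qc* (308 and 414), and 10 of 15 had a low ratio. All 12 endothelial markers were active with a sum of 1344 and 1417, *Stab2*, a scavenger receptor of the sinusoid, being the densest at 213 and 232. Low ratios were thus also found in genes of other liver cells.

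The 12 stellate cell and fibroblast markers were active at a low level, with a sum of 166 and 195, and 5 were high and 4 low. Retinol-esterifying *Lrat* had 30.9 and 29.2 reads per kb and the matrix gene *Reln* had 16.3 and 18.01 with a ratio of 319 and 269.9. Of 12 lymphocyte markers 11 were active, with a sum of 191 and 228 and a median ratio that depended on the pool, 28.1 in WT1 and 8.72 in WT2, and the B-cell genes *Cd79a* (26.1 and 39.3 reads per kb) and *Cd79b* (49.3 and 60.8) were present in both pools. Of 13 erythroid markers 11 were active, with a sum of 407 and 426. This sum was led by *Tfr2* (121 reads per kb over both pools) and *Tfrc* (118), against a list median of 17.3. *Klf1*, the erythroid master regulator, had 62.0 and 68.8 reads per kb, and *Gata1* (3.04 and 4.37) was inactive. Only 4 of 12 cholangiocyte markers were active, and *Krt19* (1.95 and 5.35 gene body reads per kb), *Krt7* (2.15 and 2.85) and *Epcam* (0.973 and 0.636) were under the cutoff.

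Most developmental regulators and most proteins of other organs were under the activity rule. Of 48 developmental regulators 4 were active, namely *Hoxa5*, *Hoxa2*, *Lhx2* and *Olig1*, at 6.23 to 15.3 reads per kb on average. *Hoxa5* had 355 and 268 promoter-proximal reads and a ratio of 708 and 266. Of 36 proteins of other organs 5 were active, at 5.57 to 35.8 reads per kb, with *Ptprc*, the leukocyte antigen CD45 (37.2 and 34.5), which is also on the lymphocyte list, as the densest active one. *Pomc*, the precursor of pituitary hormones, had a denser gene body, at 49.9 and 50.3 reads per kb, and the skin gene *Lor* had 6.74 and 7.48, but neither had a read in the promoter window, so both were counted as inactive.

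For genes with a RefSeq promoter entry, the sequence before the start was compared with the polymerase values. Promoters are shown for the 3 densest polymerase II genes and then for 3 genes of high ratio, to set output-rich genes beside strongly paused ones. The latter had the highest ratios among genes with at least 50 reads in each region. Each run is the 150 bases before a RefSeq transcript start on GRCm38.p6, read 5′ to 3′ on the coding strand, with CpG dinucleotides in capitals. Their locations are, for *Apoa1*, chr9:46228480-46228629 on the plus strand, for *Pck1*, chr2:173152923-173153072 on the plus strand, for *Ahsg*, chr16:22891865-22892014 on the plus strand, for *Pik3r3*, chr4:116221458-116221607 on the plus strand, for *Wdr89*, chr12:75669538-75669687 on the minus strand, and for *Abhd5*, chr9:122351466-122351615 on the plus strand. *Pik3r3* has several RefSeq starts, and the run shown precedes one that lies downstream of the first start of the gene at 116221400, so it lies inside the outermost gene span.
Apoa1: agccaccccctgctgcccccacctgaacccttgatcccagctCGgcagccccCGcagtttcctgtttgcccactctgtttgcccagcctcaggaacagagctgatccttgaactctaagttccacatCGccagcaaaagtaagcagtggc
Pck1: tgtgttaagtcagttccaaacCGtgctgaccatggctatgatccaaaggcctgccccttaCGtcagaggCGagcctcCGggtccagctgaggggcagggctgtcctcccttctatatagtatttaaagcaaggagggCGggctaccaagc
Ahsg: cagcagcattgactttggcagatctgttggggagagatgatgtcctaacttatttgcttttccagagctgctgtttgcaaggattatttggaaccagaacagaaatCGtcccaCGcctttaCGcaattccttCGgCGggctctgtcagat
Pik3r3: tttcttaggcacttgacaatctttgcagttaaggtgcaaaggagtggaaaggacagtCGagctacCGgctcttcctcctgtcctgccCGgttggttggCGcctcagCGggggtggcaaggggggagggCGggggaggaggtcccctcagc
Wdr89: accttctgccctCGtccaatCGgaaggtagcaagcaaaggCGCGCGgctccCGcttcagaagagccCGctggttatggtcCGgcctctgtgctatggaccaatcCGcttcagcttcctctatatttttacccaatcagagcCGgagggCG
Abhd5: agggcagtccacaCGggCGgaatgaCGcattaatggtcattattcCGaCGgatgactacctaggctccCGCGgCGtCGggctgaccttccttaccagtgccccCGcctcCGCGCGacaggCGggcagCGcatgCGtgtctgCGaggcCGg

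In these windows *Apoa1* had 3 CpG dinucleotides, *Pck1* 5 and *Ahsg* 5, while *Pik3r3* had 6, *Wdr89* 11 and *Abhd5* 18. Over all genes, CpG content varied with the pausing ratio and not in the same way with output. RefSeq promoters of 300 bases, from 250 before to 50 after the start, were found for 10003 of 12233 active genes outside chromosome 18 (81.8%), 1 promoter a gene, and were cut into 5 equal groups by observed over expected CpG. In the group with the lowest CpG content the median ratio was 21.8 in WT1 and 18.04 in WT2, and 54.4% were low and 13.1% high. In the other groups the median ratio over both pools lay between 48.5 and 63.4, and at most 27.2% were low.

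The difference lay in the promoter window more than in the gene body. From the lowest to the highest group of CpG content, the median promoter-proximal density went from 667 to 2529 reads per kb and the median gene body density from 27.8 to 44.5. When genes were instead ordered by pausing ratio into 5 equal groups, median observed over expected CpG was 0.548 in the lowest group and 0.804 in the highest, and median GC content 56.7% and 62.3%. Ordered by gene body density, median observed over expected CpG was 0.670 in the lowest group, 0.806 in the fourth and 0.762 in the highest. Among the 100 densest genes, the 78 with a promoter had a median of 0.443, against 0.765 for all active genes with a promoter. CpG content thus did not fall steadily with output over the 5 groups, but was lower among the densest genes. These relations were not tested, and the lowest group of ratios stood apart from the others more than those differed from each other. The promoter sequence and the window were both placed by an annotated start, and the part of other start sites in these relations was not tested.

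Short motifs were searched as letters in the 300 bases, on both strands unless stated. The GC box GGGCGG was found in 47.2% of promoters in the lowest group of ratios and 71.7% in the highest, against 64.3% of all active genes with a promoter and 35.7% of all 32851 promoters in the table. The ETS motif CCGGAAG was found in 11.3% and 20.4%, against 18.6% of active genes and 8.86% of all promoters, and CCAAT in 35.8% and 42.1%, against 38.7% and 37.4%. All of these motifs except CCAAT hold a CpG, so their shares overlap with CpG content. Each match is a description of the letters present and not of a bound factor.

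The TATA box was searched only as TATAAA on the coding strand, beginning 40 to 20 bases before the start. Variant forms of the box were not searched, so genes without TATAAA may hold one. TATAAA was found in 133 active genes, or 1.33% of those with a promoter, and in 1.99% of all promoters. These genes had a median ratio of 31.5 in WT1 and 25.01 in WT2, against 51.0 and 46.1 for 9869 genes without it, and 46.6% against 27.7% were low. The difference did not hold at every CpG content. In the lowest CpG group the median ratio was 15.2 for 63 genes with the box and 20.0 for 1938 without, while in the middle group it was 92.6 for 21 genes and 63.3 for 1979. Of the genes selected for naming, the box was found in *Cebpa*, *Cela1*, *Cyp2e1*, *Errfi1*, *Furin*, *G6pc*, *Gadd45g* and *Igfbp4*, which had low ratios, in *Abca1*, *Flt1* and *Srsf2*, which had high ones, and in *Fos*, which was in neither class.

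**Figure D5:**
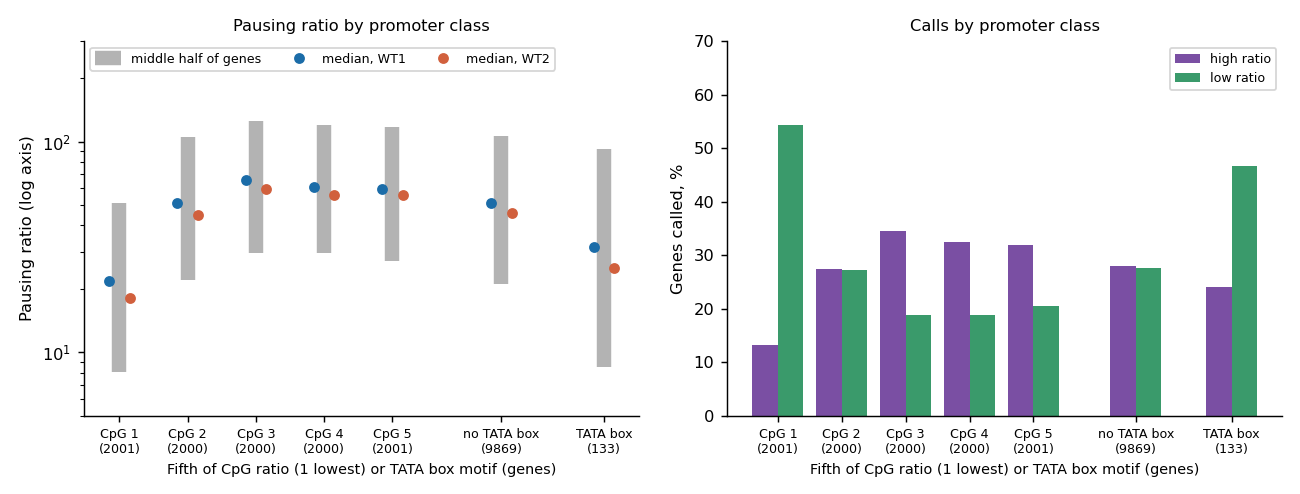
Pausing ratio by promoter CpG content and TATAAA motif. The horizontal axis gives 5 equal groups of active genes by observed over expected CpG, with the number of genes in brackets. Apart from them stand genes without and with the exact motif TATAAA, labelled as TATA box. On the left, grey bars run from the lower to the upper quartile of the pausing ratio (no unit, log axis) and points are the medians in WT1 and WT2, and on the right, bars are the percentage of genes called high or low. The lowest CpG group stood below the others, at 21.8 and 18.04, with 54.4% low, and genes with TATAAA lay at 31.5 and 25.01.

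Few gene bodies differed between WT1 and WT2. Of 11088 genes with at least 100 gene body reads, 20 (0.18%) were more than 2-fold denser in WT1 and 11 (0.0992%) in WT2. With 1 value per pool these differences have no test. The largest towards WT1 were *Gm10319* (46.3 and 12.2 reads per kb), *Mt1*, *C730036E19Rik* (42.2 and 13.0), *Rgs16* (603 and 199) and the Y-linked *Uty* (22.3 and 7.68). Among the largest towards WT2 were *Xist* (20.4 and 51.9), *Nr4a1* (40.5 and 98.9), *Sik1* (234 and 569) and *Fos* (35.3 and 81.0).

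The sex-linked genes differed together. The Y-linked *Ddx3y* (41.2 and 18.997 reads per kb), *Eif2s3y* (21.5 and 11.2) and *Kdm5d* (19.9 and 7.02) were all denser in WT1, as was *Uty*, and *Xist*, which silences an X chromosome in females, was denser in WT2. Both pools had reads of all 5 genes. *Nr4a1*, *Sik1* and *Fos* respond rapidly to stimuli, and over the immediate-early list the median log2 difference of WT1 over WT2 was −0.30, against −0.03 over all active genes. The developmental regulator (−0.82, 4 active genes), stellate cell (−0.23, 12), cholangiocyte (−0.23, 4) and erythroid (−0.22, 11) lists also lay towards WT2. The bile acid (0.33, 14), P450 (0.31, 20) and fatty acid oxidation (0.26, 22) lists lay towards WT1. Several of these lists hold few or weakly transcribed genes. The part of the sex-linked genes in the other differences between the pools was not tested.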

How the data were processed

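PRO-seq was made from nuclei of frozen liver, with each library pooling several mice. Per the study's methods, the authors trimmed reads with cutadapt, aligned them to mm10 with Bowtie2, removed reads on ribosomal RNA loci and of mapping quality under 10, and counted them per RefSeq transcript with NRSA. The deposited WT2 counts are whole reads, and the deposited WT1 signal is reads multiplied by 1.15, so whole reads were recovered for 100% of 41640 values a library (tolerance 0.01). The deposited densities are normalized signal per bp. Where a symbol had several transcripts (118 symbols), that with the most promoter-proximal reads on average was kept. Ratios were tested with limma 3.58.1 in R 4.3.3 (intercept only, trend on promoter-proximal reads, pseudocount 1 read, each library centred on its median) and window reads with an exact binomial test, both with Benjamini-Hochberg adjustment, after a check on simulated data. Genes were named by fixed ranks (top 10 of each measure, 3 densest and extreme ratios of each list); members completing a short count, and *Pomc* and *Lor*, were added after their values were seen, and some genes that the ranks select are not reported here. Members and lists were chosen with earlier results of these data known. Enhancer regions called on reads pooled over all libraries were not used. Alternatives included edgeR 4.0.16, DESeq2 1.42.0, other filters, pseudocounts and transcripts, and each library alone.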

Additional observations from a re-analysis of the deposited data

How the results depend on the processing

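The number of active genes was 12419 to 12541 with 1 library left out. With 1 library left out, the median pausing ratio was 44.9 to 50.02 and the median gene body density 38.0 to 38.6 reads per kb. The median promoter-proximal density was then 1800 to 1950 reads per kb. The 10 genes with most gene body reads held 7.52% to 9.996% of these reads (the top 10 share). In the same runs, 3439 to 3513 genes lay over 1 log2 unit above the median ratio and 3569 to 3583 below. With a cutoff set after scaling each library to 10000000 reads on genes (10972 genes), the medians were 43.9 reads per kb in the gene body and 2207 at the promoter. With no filter beyond 1 read in each region of each library they were 31.5 and 1463, with a median ratio of 51.6. When both libraries had to pass, the gene body median was 39.0. Without *Rn45s*, an alternative added after seeing the data, the top 10 share was 3.15%. Counts of high and low ratios stayed within 1.5 times of the main counts under every alternative run. Of the main calls, edgeR shared 99.3% in each direction, DESeq2 98.5% of high and 95.7% of low, and a pseudocount of 10 reads 91.2% and 84.5%, with 13 and 22 calls of opposite sign. Of 120 recomputed list medians, none crossed the median of all genes and 6 moved by over 1.5-fold, all in lists of few or weakly transcribed genes (developmental regulators, stellate cell, cholangiocyte and lymphocyte markers). The cause of these shifts was not tested. No paired analysis was possible because both libraries belong to 1 group and no groups were compared. Another scaling of the libraries was not run for the top 10 share. Scaling cannot change the share within a library, but it changes the weight of each library in the mean. With 2 pools, spread between animals is not measured, and ratios of genes with few promoter-proximal reads are limited by counting.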
